A study of Homo sapiens with 13 samples.

Results

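Accessible chromatin was described at 10 genes encoding lineage transcription factors of the LIM-homeodomain family (ISL1, ISL2, LHX1, LHX3, LHX4, LHX5), the ONECUT family (ONECUT1, ONECUT2, ONECUT3) and the PROX family (PROX1). They were chosen by name, and all 10 were found among the 20033 protein-coding genes of GENCODE release 44 on hg38. The study profiled 2 established human small cell lung cancer (SCLC) cell lines by ATAC-seq, an assay in which the Tn5 transposase inserts sequencing adapters into open DNA. H82 is an SCLC-N line, named for NEUROD1, and H146 belongs to another neuroendocrine subtype. Both lines carried wild-type labels and were either untreated or given 100 nM FHD-286 over 14 days. This compound blocks SMARCA4 and SMARCA2, the ATPases that drive SWI/SNF chromatin remodelling. The 13 libraries were 4 untreated and 3 treated from H146, and 3 untreated and 3 treated from H82. Each line is 1 culture model, so a difference between them is a difference between these lines and not between subtypes.

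The deposited values were 1 list of accessible regions per line, merged over its untreated and treated libraries. A region was thus open in at least 1 library of a line, without saying which. The lists gave no read count, no score and no depth, so there was no replicate error, the effect of FHD-286 was not tested, and every difference below is a description of 2 pooled lists. In bulk material, a site open in a few cells and a site weakly open in many cannot be told apart. Library number, sequencing depth and locus copy number go with the line and cannot be told apart from it.

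LIM-homeodomain proteins bind DNA through a homeodomain and partner proteins through paired LIM zinc fingers, chiefly the adaptor LDB1, which ties them into larger complexes. Combinations of these factors assign identity to motor neurons, interneurons, pituitary cells and pancreatic endocrine cells. ONECUT proteins carry a CUT domain and a homeodomain, act in liver, pancreas, retina and motor neurons, and are expressed in several neuroendocrine tumours, while PROX1 is a homeodomain protein of lymphatic vessels, liver, lens and differentiating neurons.

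The sequences below show DNA that was listed as open in only 1 of the lines. They come from ONECUT3, ISL2 and LHX3, the loci most covered in H82 relative to H146, and from ISL1, the least. The first is the ISL2 promoter, the only promoter among the 10 genes with a region in H82 and none in H146. It is the 250 bases before the start in the RefSeq table for GRCh38.p14, plus strand, chr15:76336523-76336772, with a GC content of 68.0%. Capitals mark matches to CCAAT, read as CCAAT or ATTGG, and to the cAMP response element TGACGTCA, which reads the same on both strands. These 2 words were chosen after the sequence was read. Of 35116 RefSeq promoters cut to the same length, 32.0% held CCAAT and 1.65% held TGACGTCA.
ISL2 promoter: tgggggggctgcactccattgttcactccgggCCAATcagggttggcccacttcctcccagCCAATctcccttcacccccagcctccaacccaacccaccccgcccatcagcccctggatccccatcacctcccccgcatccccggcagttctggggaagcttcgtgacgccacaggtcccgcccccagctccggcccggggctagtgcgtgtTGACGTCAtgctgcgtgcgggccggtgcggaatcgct
The others are the central 300 bases, plus strand of hg38, of regions found in 1 line only. They are the widest such region outside annotated UTRs at ONECUT3 (H82, chr19:1748759-1749058), LHX3 (H82, chr9:136219266-136219565) and ISL1 (H146, chr5:51491051-51491350), and the widest one inside the ISL1 gene (H146, chr5:51386238-51386537), which was added after its values were seen. Capitals mark the E-box words CAGCTG and CAGATG, the latter read as CATCTG on the other strand, and the FOXA word TGTTTAC, read there as GTAAACA. The ONECUT words ATCGAT and ATCAAT, the latter read there as ATTGAT, the LIM-homeodomain core TAATTA, and the OTX2 word TAATCC, read there as GGATTA, were searched as well and had no match in these windows.
ONECUT3 H82-only: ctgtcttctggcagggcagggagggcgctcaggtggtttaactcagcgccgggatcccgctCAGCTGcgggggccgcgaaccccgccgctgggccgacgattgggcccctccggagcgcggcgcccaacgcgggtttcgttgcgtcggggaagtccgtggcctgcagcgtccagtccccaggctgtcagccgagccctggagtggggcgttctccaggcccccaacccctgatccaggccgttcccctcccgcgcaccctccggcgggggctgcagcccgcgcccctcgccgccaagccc
LHX3 H82-only: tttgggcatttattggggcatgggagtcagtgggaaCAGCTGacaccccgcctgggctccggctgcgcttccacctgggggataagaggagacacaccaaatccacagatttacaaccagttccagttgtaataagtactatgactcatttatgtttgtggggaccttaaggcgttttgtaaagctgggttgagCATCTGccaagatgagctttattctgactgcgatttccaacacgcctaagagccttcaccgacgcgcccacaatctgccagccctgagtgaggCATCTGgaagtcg
ISL1 H146-only: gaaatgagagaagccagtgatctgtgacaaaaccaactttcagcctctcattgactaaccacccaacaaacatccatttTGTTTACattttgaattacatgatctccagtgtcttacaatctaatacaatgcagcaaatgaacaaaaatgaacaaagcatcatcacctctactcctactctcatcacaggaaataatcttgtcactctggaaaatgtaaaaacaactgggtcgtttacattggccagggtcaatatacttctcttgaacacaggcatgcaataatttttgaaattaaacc
ISL1 H146-only in gene: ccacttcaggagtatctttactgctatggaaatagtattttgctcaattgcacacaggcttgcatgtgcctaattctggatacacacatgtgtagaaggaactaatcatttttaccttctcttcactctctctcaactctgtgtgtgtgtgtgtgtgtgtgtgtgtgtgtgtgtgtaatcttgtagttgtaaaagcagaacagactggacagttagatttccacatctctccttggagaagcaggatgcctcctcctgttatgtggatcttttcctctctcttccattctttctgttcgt
The ONECUT3 window held 1 CAGCTG, the LHX3 window 1 CAGCTG and 2 CAGATG, and the distal ISL1 window 1 FOXA word. Of the central 300 bases of all 55561 H82-only regions of at least that width, 35.2% held CAGATG and 22.9% CAGCTG. Of 28083 such H146-only windows, 9.81% held the FOXA word. A match describes the letters and not occupancy by a factor.

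Over the whole genome the H82 list was the longer, with 206927 regions covering 5.41% of the genome against 174093 regions covering 4.49% in H146. Of the H82 regions 84208 (40.7%) were H82-only, meaning that no base overlapped the other list, and of the H146 regions 51303 (29.5%) were H146-only. The lineage marker NEUROD1 had a region of 7865 bp at its transcription start site (TSS) in H82 and none in H146. Of 3 markers of other cells, PTPRC, which defines leukocytes, had no TSS region in either line, and PECAM1 and COL1A1 had one in both. A TSS region therefore did not by itself mark a gene of the line's own cell type.

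Nearly all of the 10 genes had an open TSS in both lines. A region lay within 1 kb of the TSS, taken as the gene's 5′ end, for all 10 genes in H82 and for 9 in H146, and ISL2 was the gene without one in H146. Over all protein-coding genes, 75.4% had a TSS region in both lines, 5.1% in H82 and not H146, and 1.86% in H146 and not H82. TSS regions of at least 2 kb were found at 8 of the 10 genes in H82 and at 6 in H146, where 33.3% and 29.9% of all genes had one. The width differed by more than 1.5 times at 5 genes, and the share of all genes that did so was not counted. ISL2 had 7874 bp in H82 against none, LHX3 had 4024 bp in H82 against 369 bp in H146, and ONECUT3 had 1506 bp against 340 bp. ONECUT2 and LHX5 went the other way, ONECUT2 with 5565 bp against 10872 bp in H146 and LHX5 with 200 bp against 1125 bp.

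**Figure D1:**
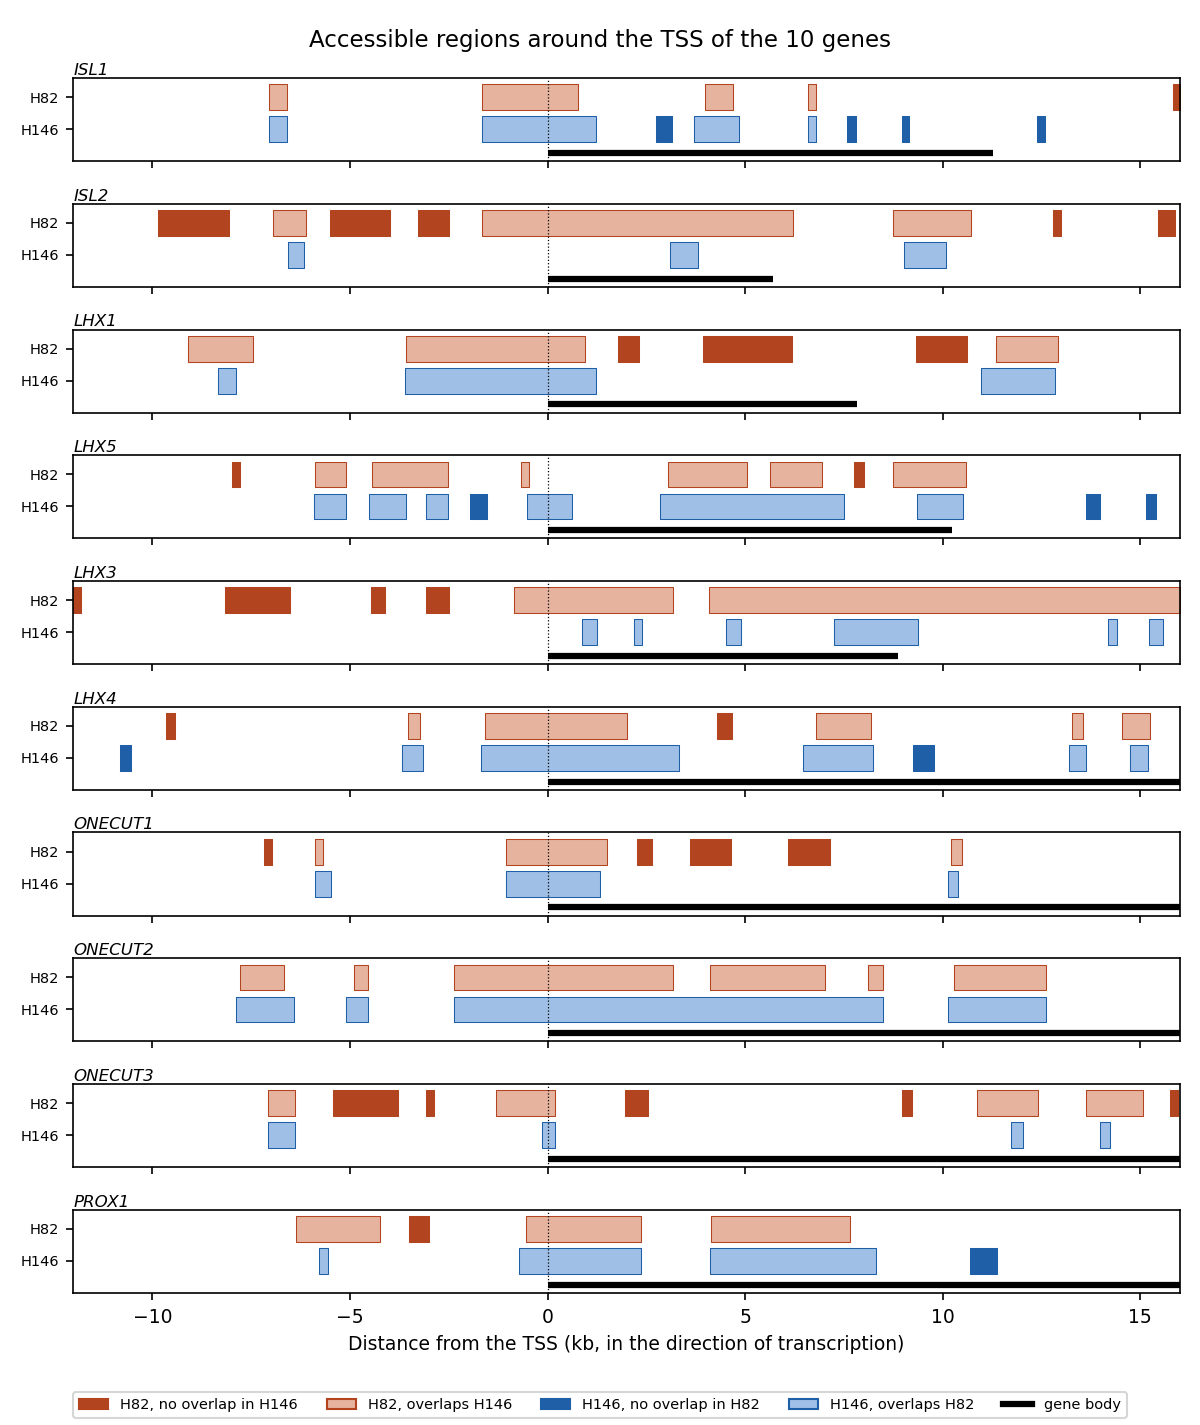
Accessible regions from 12 kb before to 16 kb after the TSS of each gene, in the direction of transcription, with distance in kb on the horizontal axis. Bars are regions of H82 (upper row, red) and H146 (lower row, blue), dark where the other line has no overlapping region, and the black line is the gene body. The H82 region over ISL2 runs past both ends of the gene, while H146 has a region of 704 bp inside it.

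Around the genes, H82 had more regions and a larger covered share at most loci. The locus of a gene was its body with 100 kb to either side. Summed over the 10 loci, there were 350 regions in H82 and 263 in H146, so that H82 gave 57.1% of them (exact binomial 95% interval 53.1% to 61.1%, counting error only), against 54.3% of all regions of the genome. The interval takes regions as independent, although 187 of the H82 and 208 of the H146 regions overlapped one of the other line. Relative to the DNA 5 Mb to either side of each locus the H82 share was 49.1%, so for the number of regions no H82 excess remained over the surroundings. Of the H82 regions 163 (46.6%) were H82-only, and of the H146 regions 55 (20.9%) were H146-only, against 40.7% and 29.5% over the genome. The share of the locus covered by regions was larger in H82 at 8 of the 10 genes, the exceptions being ISL1 and ONECUT2. Over the genes with a region in at least 1 list, 65.3% had the larger share in H82. The share was at least 1.5 times as large in H82 at 6 genes (ISL2, LHX1, LHX3, LHX4, ONECUT1, ONECUT3), where 28.5% of all genes were, and at least 1.5 times as large in H146 at 0, where 3.97% of all genes were.

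**Figure D2:**
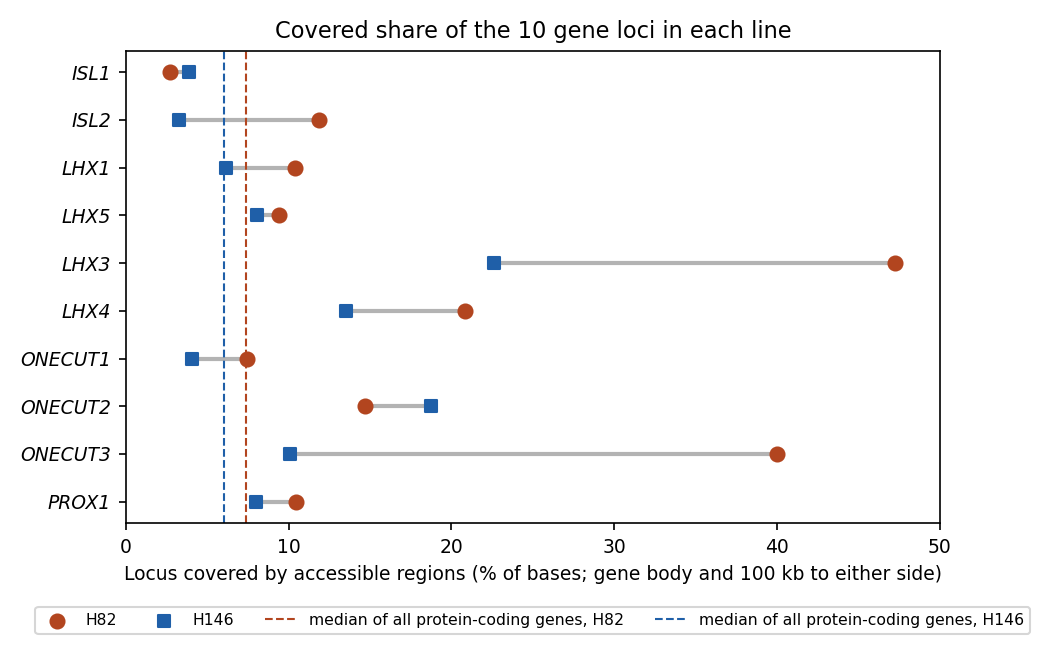
Percent of each locus (gene body and 100 kb to either side) covered by accessible regions in H82 (circles) and H146 (squares), with dashed lines at the medians over all protein-coding genes, 7.40% in H82 and 6.04% in H146. LHX3 and ONECUT3 reach 47.3% and 39.98% in H82, and ISL1 and ONECUT2 are the genes whose H146 value lies to the right.

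The median covered share of the 10 loci was 11.2% in H82 and 8.02% in H146, and the median log2 ratio of H82 to H146 was 0.69, against 0.20 over the 19829 genes with a region in both lists. Part of this ratio was shared with the DNA around the genes. In the 5 Mb to either side of each locus, with the locus left out, the log2 ratio ran from −0.58 around ONECUT2 to 1.52 around ONECUT3. At 8 of the 10 genes the locus exceeded its surroundings, with a median excess of 0.22, where 48.1% of all genes did and the median over all genes was −0.016. ISL1 and LHX5 were the other two of the 10. The part of copy number in these regional ratios was not tested.

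**Figure D3:**
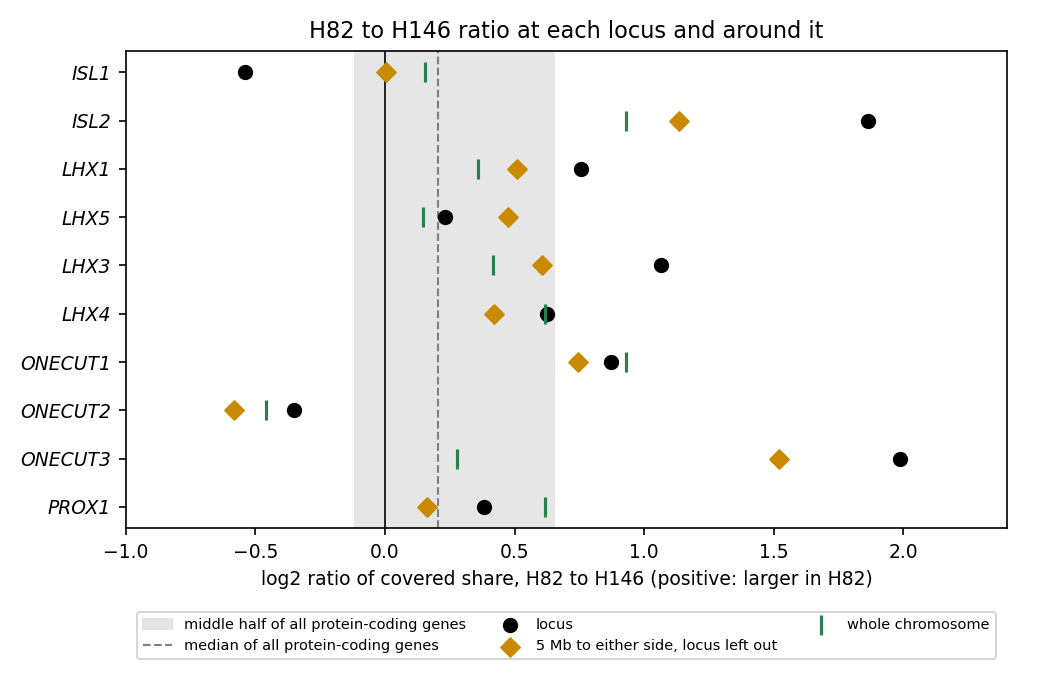
log2 ratio of covered share, H82 to H146, at each locus (circles), in the 5 Mb to either side (diamonds) and on the whole chromosome (ticks), with the interquartile range and median of all protein-coding genes in grey. ISL2, LHX3 and ONECUT3 lie to the right of their surroundings, and ISL1 lies to the left of its own.

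ISL1 and ISL2, a pair of paralogs that act in motor neurons, differed in opposite directions. ISL1 (ENSG00000016082.15, chr5:51383448-51394730, plus strand), which also specifies pancreatic endocrine cells and cardiac progenitors, was the locus with the lowest ratio of the 10. Regions covered 2.69% of it in H82 and 3.91% in H146, a log2 ratio of −0.54, at percentile 4.72 of all genes. The TSS regions began at the same base and ran for 2411 bp in H82 against 2883 bp in H146. Much of the difference lay within the gene, where 3 H82 regions covered 14.8% of the body and 6 H146 regions covered 30.2%. In H146 there were 3 regions in the body without a counterpart in H82, centred 2.94, 7.69 and 9.06 kb after the TSS and 397, 244 and 200 bp wide. The first of these is the ISL1 sequence shown above from within the gene. A shared region centred near 4.3 kb was 1139 bp in H146 and 716 bp in H82. Outside the gene, H146 had 3 further H146-only regions, of which the widest was 430 bp at 108 kb, while the widest H82-only region was 308 bp at 15.98 kb. No other protein-coding gene lies in this locus, the divergent noncoding gene ISL1-DT starts within 1 kb of the TSS, and the surrounding 5 Mb had a log2 ratio of 0.0032. There were only 9 H82 and 13 H146 regions, so the H82 share of 40.9% had an interval of 20.7% to 63.6%, again with regions taken as independent.

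ISL2 (ENSG00000159556.10, chr15:76336773-76342475, plus strand), a factor of motor neurons and retinal ganglion cells, differed towards H82 at the promoter, in the gene and in the covered share around it. Single regions around it also went the other way. In H82 a single region of 7874 bp, chr15:76335106-76342979, covered the promoter printed above and 100% of the gene body, and was wider than 97.9% of the TSS regions of that line. In H146 1 region of 704 bp, centred 3.45 kb inside the gene, covered 12.3% of the body, and the nearest region lay 3101 bp from the TSS. The locus was covered to 11.9% in H82 and 3.26% in H146, or 3.64-fold, a log2 ratio of 1.86 at percentile 97.1. Upstream of the promoter H82 had a series of H82-only regions, 1790 bp at −8.97 kb, 1510 bp at −4.74 kb and 780 bp at −2.89 kb, and on the other side one of 1298 bp at 17.9 kb in an intron of SCAPER. The widest H146-only region was 500 bp at 30.0 kb. Of 24 H82 regions 16 were H82-only, and of 10 H146 regions 2 were H146-only. The whole of chromosome 15 had a log2 ratio of 0.93 and the surrounding 5 Mb one of 1.13, both below that of the locus. The neighbouring TSS of ETFA, a mitochondrial electron carrier, was open in both lines, at 1402 bp in H82 and 1028 bp in H146.

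LHX3 and LHX4, the partners of ISL1 in motor neurons and factors of the developing pituitary, both had more covered sequence in H82. LHX3 (ENSG00000107187.17, chr9:136196250-136205128, minus strand) had the most densely covered locus of the 10 in either line, at 47.3% in H82 and 22.6% in H146, which were percentiles 98.5 and 93.3 of all genes. The numbers of regions were close, 67 and 60, so the 2.09-fold difference in covered sequence (log2 ratio 1.06, against 0.61 around it) came with wider regions, whose median width was 862 bp in H82 and 461 bp in H146. Within the gene, 2 H82 regions covered 89.5% of the body and 4 H146 regions 29.0%. The TSS region of 4024 bp in H82 compared with 369 bp in H146, and the latter lay 873 bp from the TSS. The widest H82 region, 11965 bp, was centred 10.1 kb after the TSS and ran from inside the gene past its end, where H146 had several narrower ones. The widest in H146 was 3925 bp at 33.8 kb. In the introns of QSOX2, which lies upstream, H82 had H82-only regions of 2368 bp at −14.3 kb, printed above, and 1638 bp at −7.35 kb. The widest H146-only region was 430 bp at 66.3 kb. The TSSs of QSOX2 (1237 and 1215 bp) and TMEM250 (2467 and 2651 bp) differed little in width between H82 and H146.

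LHX4 (ENSG00000121454.6, chr1:180230264-180278984, plus strand) was covered to 20.8% of its locus in H82 and 13.5% in H146, or 1.54-fold, with a log2 ratio of 0.63 against 0.42 around it and 0.62 for chromosome 1, so the H82 excess at LHX4 was about that of its chromosome. Its promoter was open in both lines and wider in H146, at 3606 bp against 5027 bp in H146. In the body the lists differed in merging as well as in extent, with 12 H82 regions covering 43.98% and 16 H146 regions covering 31.8%. The widest H82 region was 6368 bp in an intron, centred at 23.8 kb, and H146 had 2341 bp beginning at the same base. Beyond the gene, in introns of ACBD6, the widest H82-only region was 1570 bp at 131 kb and the widest H146-only region 765 bp at 135 kb. There were 21 H82-only regions of 42 and 5 H146-only regions of 34.

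LHX1 and LHX5, paralogs of interneurons and Purkinje cells, both had the larger covered share in H82 over the locus, but it lay in different places. LHX1 (ENSG00000273706.5, chr17:36936785-36944612, plus strand), also a factor of kidney and retinal horizontal cells, had TSS regions of 4549 bp in H82 and 4839 bp in H146. Behind this shared promoter, H82 had 2 H82-only regions in introns, 537 bp at 2.04 kb and 2244 bp at 5.06 kb, and another of 1277 bp at 9.97 kb. H146 had no region in the body other than that of the TSS, so that 47.8% of the body was covered in H82 and 15.7% in H146. Over the locus, 26 H82 regions covered 10.4% and 17 H146 regions 6.15%, 1.69-fold (log2 ratio 0.76, against 0.51 around it). The widest H146-only region was 502 bp at −68.9 kb. AATF, the nearest coding neighbour, had TSS regions of 1587 bp in H82 and 1879 bp in H146.

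LHX5 (ENSG00000089116.4, chr12:113462033-113472280, minus strand) had a TSS region of 1125 bp in H146 that spanned the start, while the H82 region was 200 bp wide and 471 bp before it. Inside the gene H146 had its widest region of the locus, 4667 bp centred at 5.17 kb, and H82 had 2009 bp at 4.05 kb and 1305 bp at 6.29 kb over the same interval. The body was covered to 49.6% in H82 and 60.3% in H146. The locus as a whole was covered slightly more in H82, 9.44% against 8.04% (log2 ratio 0.23, against 0.47 around it). The H82 excess lay after the gene, where the downstream 100 kb held 9% in H82 and 4.32% in H146, while the upstream 100 kb held 5.76% and 6.39%. The widest H82-only region was 1316 bp at 74.2 kb in an intron of SDS, a serine dehydratase, and the widest H146-only region was 513 bp at −52.5 kb. The direction at LHX5 thus depended on the length of flank, and with 10 kb to either side the log2 ratio was −0.27. LHX5-AS1 starts within 1 kb of the TSS, and ATAC-seq does not tell the 2 strands apart.

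**Figure D4:**
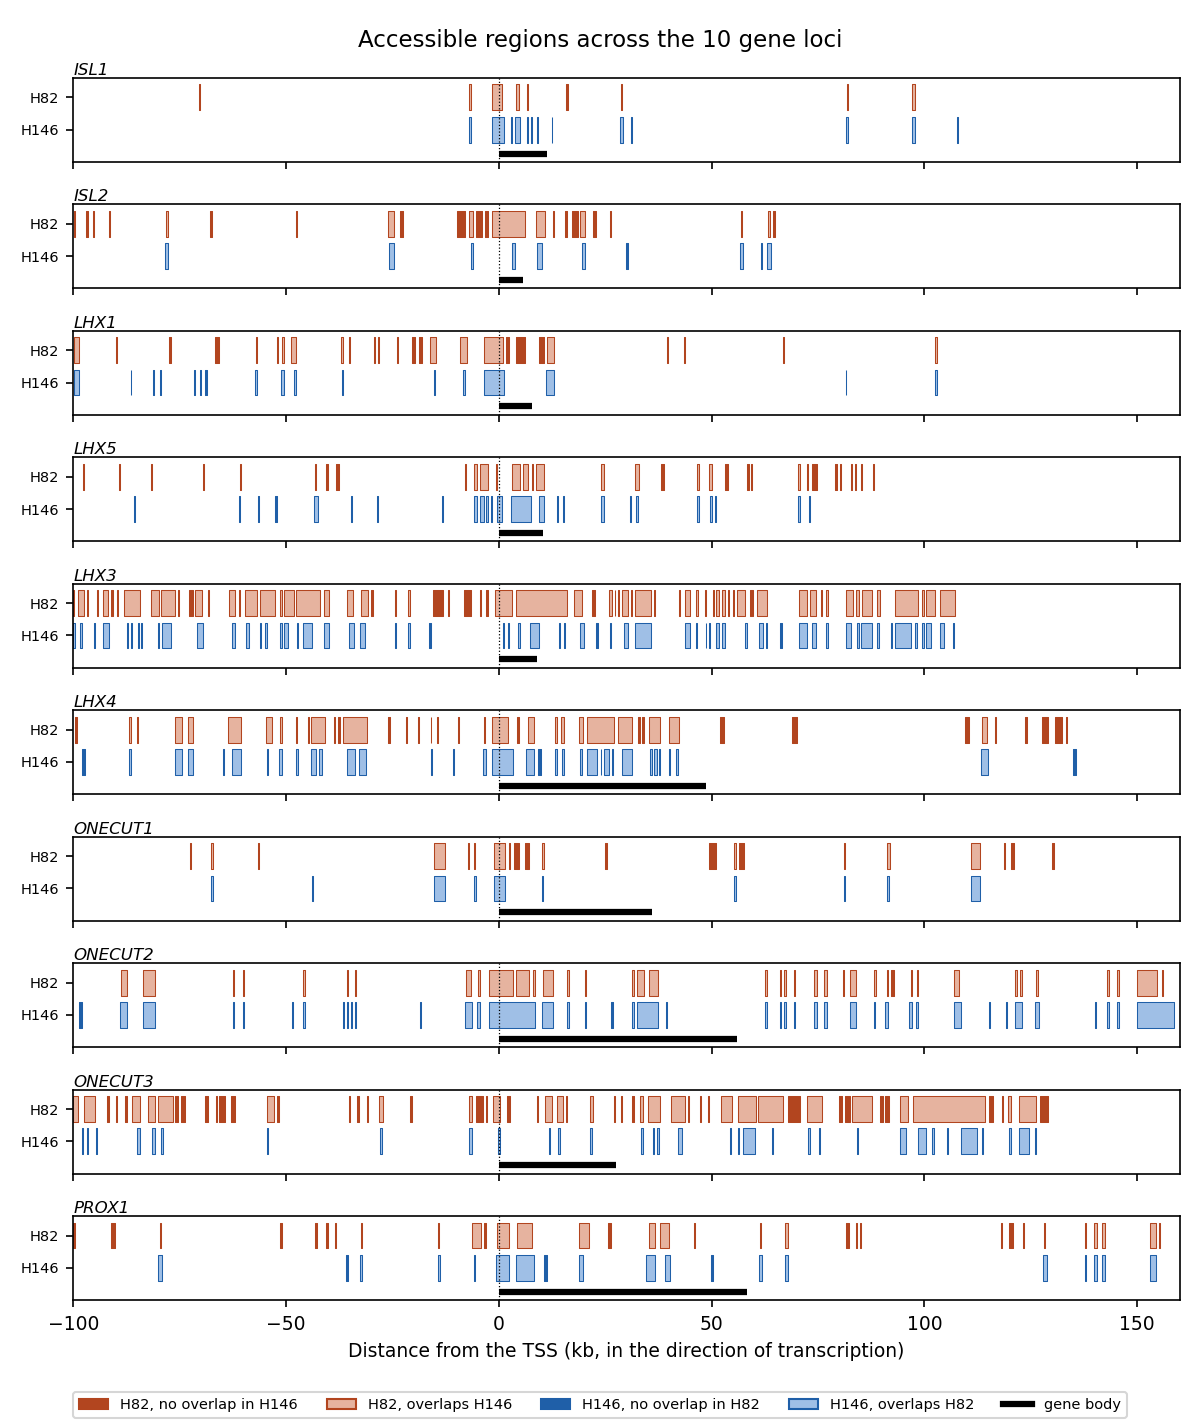
Accessible regions over the 10 loci, with distance from the TSS in kb on the horizontal axis in the direction of transcription. Bars are H82 (red) and H146 (blue) regions, dark where the other line has none, and the black line is the gene body. Dark red bars are spread over the ONECUT3, LHX3 and ISL2 loci, and dark blue bars outnumber dark red ones at ISL1 and ONECUT2.

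The ONECUT genes did not move together in the log2 ratio of the locus itself. Relative to the 5 Mb to either side, ONECUT1 (0.13), ONECUT2 (0.23) and ONECUT3 (0.47) were all covered more in H82. ONECUT1 (ENSG00000169856.9, chr15:52755053-52791078, minus strand), known as HNF6 in liver and pancreas, had nearly equal TSS regions, of 2569 bp (H82) and 2371 bp (H146). The body carried 6 H82 and 2 H146 regions, covering 13.01% and 4.38%, and 4 of the former were H82-only regions in introns, 380 bp at 2.45 kb, 1046 bp at 4.13 kb, 1081 bp at 6.62 kb and 386 bp at 25.2 kb. The widest H82-only region of the locus was 1514 bp at 50.2 kb, followed by 1335 bp at 57.0 kb. H146 had 1 H146-only region, 229 bp wide at −43.9 kb, and its widest region of all was 2520 bp at −14.0 kb, where H82 had 2445 bp. Covered shares of 7.43% and 4.06% gave a log2 ratio of 0.87, or 1.83-fold. The surrounding 5 Mb had 0.74 and chromosome 15 had 0.93, so the H82 excess at ONECUT1 was about that of its chromosome.

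ONECUT2 (ENSG00000119547.6, chr18:57435374-57491298, plus strand), which is expressed in neuroendocrine cancers, was the gene with the widest TSS region in H146. A single H146 region of 10872 bp, chr18:57432996-57443867, ran from the promoter into the first part of the gene, wider than 99.3% of the TSS regions of that line. H82 began at the same base and had 5565 bp there, then separate regions of 2915 bp at 5.58 kb and 391 bp at 8.30 kb within the same stretch. The body was covered to 24.03% in H82 and 31.2% in H146, and the locus to 14.7% and 18.7%, a log2 ratio of −0.35 at percentile 11.2. H146-only regions numbered 10 of 42, the widest 802 bp at −98.3 kb, with 425 bp at 26.5 kb and 253 bp at 39.5 kb in introns, while H82-only regions numbered 2 of 39, the widest 534 bp at 92.5 kb. The surrounding 5 Mb had a log2 ratio of −0.58 and chromosome 18 had −0.46. Relative to either, ONECUT2 was thus covered more in H82. The TSS of FECH, the last enzyme of haem synthesis, was also wider in H146, at 8782 bp against 4663 bp, and that of ST8SIA3, a sialyltransferase, was alike at 2827 bp in H82 and 2869 bp in H146.

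ONECUT3 (ENSG00000205922.5, chr19:1753506-1780988, plus strand) had the highest ratio of the 10 loci. The locus was covered to 39.98% in H82 and 10.1% in H146, 3.97-fold, a log2 ratio of 1.99 at percentile 97.8. The 57 H82 regions included 33 that were H82-only, whereas of 33 H146 regions 2 were H146-only, each 200 bp wide. At the gene, the TSS region was 1506 bp in H82 and 340 bp in H146, an H82-only region of 1646 bp lay at −4.60 kb, as printed above, and the body was covered to 18.7% and 4.81%. Much of the excess lay beyond the gene. The downstream 100 kb was covered to 60.2% in H82 and 17.8% in H146, and it holds ATP8B3, REXO1, KLF16 and ABHD17A. A region of 17022 bp at KLF16, a zinc finger gene, was the widest of all 10 loci in H82, where the TSS region in H146 was 3709 bp, and the widest H82-only region was 2874 bp in an intron of REXO1. The 5 Mb around the locus had a log2 ratio of 1.52, against 0.28 for chromosome 19 as a whole. The ratio at ONECUT3 was thus nearer to that of its segment than to that of its chromosome.

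PROX1 (ENSG00000117707.17, chr1:213983181-214041510, plus strand) resembled ONECUT1 in having a promoter that differed little. The TSS regions measured 2913 bp (H82) and 3094 bp (H146), and the widest region of the locus in each line was a shared intronic one, 3532 bp at 5.89 kb in H82 and 4206 bp at 6.21 kb in H146. The body held 7 regions in each, covering 21.7% in H82 and 20.6% in H146. Over the locus there were 32 regions in H82 and 19 in H146, and outside the gene 25 and 12. The H82-only regions numbered 16, of which 14 lay outside the gene, and the H146-only regions 3, of which 1 did. The widest H82-only region was 1199 bp at −100.2 kb and the widest H146-only region 678 bp at 11.02 kb in an intron. Covered shares of 10.4% and 7.998% gave a log2 ratio of 0.38, or 1.30-fold, against 0.16 around it and 0.62 on chromosome 1. No other protein-coding gene lies in this locus.

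Regions seen in 1 line only were set beside the shared ones by position. Of 163 H82-only regions at the 10 loci, 141 were centred more than 10 kb from the TSS of the gene, as were 50 of 55 H146-only regions. These shares, 86.5% and 90.9%, stood beside 83.4% and 84.6% of the shared regions, and most of the sequence of a locus lies that far from the TSS. Introns held 70 of the former and 17 of the latter, exons 11 and 4, and intergenic DNA 82 and 34. Of the shared regions, introns held 67 of 187 in H82 and 84 of 208 in H146, exons 24 and 26, and intergenic DNA 96 and 98. The line-only regions were narrower than shared regions, with a median of 358 bp in H82 and 285 bp in H146 against 1186 bp and 554 bp for shared ones. Regions of at least 1 kb numbered 23 among the H82-only and 0 among the H146-only regions, whose widest was 802 bp. Their share over the genome was not counted. At the loci, the 163 H82-only regions spanned 88.6 kb and the 55 H146-only regions 18.0 kb. Over the genome, 84208 H82-only regions spanned 44413 kb and 51303 H146-only regions 19104 kb. H82-only regions were thus wider on average than H146-only regions genome-wide too. The shared regions of the genome were 122719 over about 122630 kb in H82 and 122790 over about 119530 kb in H146. Line-only regions were thus narrower on average than shared ones genome-wide as well. A wide region meets the 1 bp overlap rule more easily, so the definition itself favours this direction. The gene bodies held similar numbers of regions, 55 in H82 and 52 in H146, with median covered shares of 34.0% and 24.8%.

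The words of ONECUT, LIM-homeodomain, E-box, OTX2 and FOXA factors were counted on both strands as exact letters in these regions. Each word was counted on its own, also where matches overlapped. The ONECUT word ATCGAT occurred 6 times in the H82-only regions, at LHX3, PROX1 and ONECUT3, which was 0.0677 per kb (exact Poisson 95% interval 0.0248 to 0.147, counting error only), against 0.0186 per kb in all H82-only regions. The other ONECUT word ATCAAT was at 0.226 per kb (0.138 to 0.349) against 0.322, but in the central 200 bp of the same regions it was at 0.460 (0.258 to 0.759) against 0.265, above and not below the genome. For ATCGAT the central 200 bp gave 0.0614 per kb from 2 matches, with an interval of 0.00743 to 0.222 that held the genome value of 0.0171. ATCGAT was also above the genome in shared regions at the loci, at 0.0509 per kb (0.0291 to 0.0827) against 0.0284 in H82. In H146 the shared regions had 0.0609 (0.0324 to 0.104) against 0.0291, and the H146-only regions held 0 matches (0 to 0.205). The excess was thus not particular to the H82-only regions. In the H82-only regions the LIM-homeodomain core TAATTA occurred 5 times, at ISL2 and LHX4, or 0.0564 per kb (0.0183 to 0.132), against 0.282. The H82-only values stood beside a higher GC content, 54.6% in the H82-only regions at the 10 loci and 48.9% in all H82-only regions, and its part in them was not tested.

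The E-box and OTX2 words were the commonest of the 7 in the H82-only regions. CAGATG, an E-box form bound by NEUROD1, was at 1.11 per kb in H82-only regions at the loci (0.898 to 1.35) against 1.24 genome-wide, and CAGCTG, another E-box form, was at 0.925 (0.736 to 1.15) against 0.809. In the central 200 bp CAGCTG was at 0.828 (0.546 to 1.21) against 0.938, and both intervals held the genome value. The OTX2 word was at 0.948 per kb (0.756 to 1.17) in H82-only regions at the loci and at 0.278 (0.0903 to 0.649) in H146-only regions there, against 1.26 and 0.448 genome-wide. The FOXA word was at 0.0339 per kb (0.00698 to 0.0989) in the former and 0.278 (0.0903 to 0.649) in the latter, against 0.130 and 0.315. Both words thus differed between the lines at the loci in the direction they took genome-wide, although the FOXA values rested on 3 and 5 matches and their intervals overlapped. In the central 200 bp the OTX2 intervals overlapped as well, at 1.10 (0.773 to 1.53) in H82-only and 0.364 (0.0991 to 0.931) in H146-only regions. The FOXA word had only 1 match in each in the central 200 bp. These were 0.0307 and 0.0909 per kb with overlapping intervals, against 0.129 and 0.372 genome-wide.

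Related genes were counted as lists beside all genes, of which 65.3% had the larger covered share in H82 with a median log2 ratio of 0.20. Of 6 other LIM-homeodomain genes, 5 had a TSS region in both lines and LHX8, a factor of forebrain cholinergic neurons, had one of 286 bp in H82 only. The locus was covered more in H82 at 5 of these 6, and the median log2 ratio was 0.35. Of 10 LIM cofactors, 8 had a TSS region in both lines, SSBP3, a partner of LDB1, had one of 200 bp in H146 only, and LDB2 had none in either. The SSBP3 locus was nevertheless covered more in H82, at 31.7% against 10.6% in H146. Of these 10 cofactors, 7 had the larger covered share in H82, with a median log2 ratio of 0.09, below that of all genes. Of 5 CUT and PROX relatives, 4 had a TSS region in both and PROX2 in neither, with the locus larger in H82 at 4 and a median of 0.80. With 5 to 10 genes a list, these counts are a description.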

How the data were processed

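The authors trimmed reads with Trim Galore 0.4.4, aligned them to hg38 with bowtie2 2.3.4, removed duplicates with Picard, called peaks per sample with MACS2, dropped blacklisted regions and merged peaks of a line within 500 bp into 1 atlas. The deposited values used here are these region starts and ends in bp, with no score, count or sample. Whether reads were shifted for the Tn5 cut is not given in the sources used here. Merging joins neighbouring sites, so a width is not that of a single site, and more or deeper libraries lengthen an atlas. One H146 control is described as sequenced with the treated H146 libraries and the other 3 apart, and pooling does not let these be separated.

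Regions on 24 chromosomes were intersected with GENCODE release 44 (same build) in Python 3.11.15 with numpy 2.4.6, scipy 1.17.1 and pysam 0.24.0, checked on simulated regions. Overlap of at least 1 bp made a region shared. Coordinates are 1-based, and distances are to region centres. All 10 genes were named, with the widest region and widest line-only region of each line. RefSeq promoters matched 6 of the 10 genes. The genes, lists, words and alternatives were chosen with earlier results of these data known. FHD-286 was to be tested only on values per sample, of which the files hold none. Alternatives were TSS windows of 5 kb, all transcript starts, regions of at least 500 bp, flanks of 50 and 10 kb or to the next coding gene, the central 200 bp of regions for words, and ratios relative to the genome, the chromosome or, added after seeing the data, 5 Mb to either side. Some items are not reported here.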

Additional observations from a re-analysis of the deposited data

How the results depend on the processing

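No paired analysis was possible because the deposited lists pool all libraries of a line. For the same reason no library could be left out. H82 gave 57.1% of the regions at the 10 loci. Relative to the genome-wide ratio of the lines this was 52.8%, relative to the same chromosome 51.7% and relative to 5 Mb to either side 49.1%, which reverses the direction. The median log2 ratio of covered share, 0.69, was 0.10 relative to the same chromosome. LHX5 reversed with flanks of 50 kb (−0.032) and 10 kb (−0.27), with flanks ending at the next coding gene (−0.26), and relative to the genome (−0.037) and to 5 Mb (−0.24). Relative to the same chromosome, ONECUT1 (−0.058), PROX1 (−0.24) and ONECUT2 (0.11) reversed, and ONECUT2 also did relative to 5 Mb (0.23). LHX4 was at 0.0087 in place of 0.63 relative to its chromosome. The ONECUT word ATCAAT in H82-only regions was at 0.460 per kb in the central 200 bp in place of 0.226. The cause was not tested. With a TSS window of 5 kb all 10 genes had a region in both lines. Counting only regions of at least 500 bp, 6 did, ISL2, LHX3 and ONECUT3 had one in H82 only, and LHX5 in H146 only. Depth limits absence: a site missing from a list may have been open below what its libraries could show.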
